A study of Mus musculus with 8 samples.

Results

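A set of 10 genes of mouse chromosome 9 was followed in liver of mice that overexpress Ube3a and in liver of mice that have lost 1 of their Ube3a alleles. The 10 genes, S1pr5, Spc24, Zfp599, Tirap, Tmem218, Mcam, Rcn2, Aph1b, Aph1c and Zfp949, were chosen by their levels in transgenic liver, as genes of this chromosome whose transgenic and wild-type libraries lay apart. They are 10 of the 739 chromosome 9 genes and of the 13774 genes in all that the transgenic table lists, and 8 of them are among the 11773 genes of the heterozygote table. Zfp599 and Tmem218 were not analysed here in the heterozygotes.

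Ube3a encodes an E3 ubiquitin ligase, an enzyme that attaches ubiquitin to proteins and so marks many of them for degradation. All mice were labelled C57BL/6 and had eaten a 42% high-fat diet for 8 weeks before RNA was taken from whole liver, so no library shows the genes on another diet. The Ube3a TG homo group, homozygous for a transgene that raises Ube3a, was set against 2 wild-type (WT) libraries, and the Ube3a het group, with 1 knockout and 1 wild-type allele, against 2 other WT libraries. The labels give neither the promoter of the transgene nor its insertion site, age or sex, and they do not say whether a group's 2 libraries stand for separate animals. P-values therefore measure only the spread between libraries, which may be technical. Values are normalised reads, that is reads per gene divided by 1 factor per library, and the 2 tables were normalised separately.

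The transgenic table rests on 44193275 to 47928229 reads per library and the heterozygote table on 13171145 to 17748088, which gives the second table the lower precision for genes of low level. Ube3a was at 1187 and 1359 normalised reads in WT and at 5991 and 5938 in transgenic liver. Its levels were 369 and 409 in the other WT pair and 301 and 280 in the heterozygotes (limma adjusted p = 0.129), so the groups followed their labels without overlap although the heterozygote difference missed the threshold of 0.05. Of 12 hepatocyte markers, 10 were listed in each table, albumin among them.

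The 10 genes share a chromosome rather than a pathway. S1pr5 is a receptor for sphingosine 1-phosphate, a lipid signal, and in mice it is best known on natural killer cells. Tirap is an adaptor that couples Toll-like receptors to Myd88, and Mcam (CD146) is an adhesion molecule of endothelium and of the pericytes and smooth muscle around it. Aph1b and Aph1c are subunits of gamma-secretase, the protease in the membrane that cuts Notch and the amyloid precursor protein. Spc24 is part of the kinetochore complex that ties chromosomes to spindle microtubules, Tmem218 belongs to the transition zone at the base of cilia, and Rcn2 is a calcium-binding protein of the endoplasmic reticulum. Zfp599 and Zfp949 encode zinc-finger proteins, a family whose members often bind DNA and silence it through Trim28.

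On the GRCm38 build, with positions from GENCODE, the genes are spread along much of the chromosome. S1pr5 (chr9:21242912-21248443, minus strand), Spc24 (chr9:21755442-21760303, minus) and Zfp599 (chr9:22247430-22259895, minus) stand first. Tirap (chr9:35184551-35200291, minus), Tmem218 (chr9:37208223-37224700, plus) and Mcam (chr9:44134469-44142727, plus) follow. Rcn2 (chr9:56041845-56061882, plus) lies next, and Aph1b (chr9:66775202-66795490, minus) and Aph1c (chr9:66814994-66834726, minus) are direct neighbours with 19.5 kb between them. Zfp949 (chr9:88548020-88571061, plus) is the most distal, 21713.3 kb beyond Aph1c. Tirap overlaps Srpr on the other strand, and Tirap, Mcam and Aph1c also overlap antisense gene models, as S1pr5 and Zfp949 do other models of no known protein. Whether reads were counted by strand is not given in the sources used here, so reads of these overlapping models cannot be told apart.

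Aph1b and Aph1c are near copies, which bears on how their reads could be assigned. Over the coding sequence (774 bases in Aph1b and 777 in Aph1c), 745 of 774 aligned bases were identical (96.3%), against 63.8% between Aph1b and the third family member, Aph1a. Of the 725 windows of 50 bases in the Aph1b coding sequence, 340 (46.9%) also occur in an Aph1c transcript, and 18.0% of the windows of its longest transcript do. The coding bases 4 to 93, counted from the start codon, are shown because they hold 12 of the differences that separate the 2 genes; capitals mark the differing bases, and the sequences are from the GENCODE transcripts on GRCm38.
Aph1b: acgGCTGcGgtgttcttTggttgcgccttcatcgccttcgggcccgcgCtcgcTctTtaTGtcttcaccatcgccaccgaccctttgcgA
Aph1c: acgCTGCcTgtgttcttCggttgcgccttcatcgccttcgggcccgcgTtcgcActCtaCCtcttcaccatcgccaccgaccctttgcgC
A read from such a stretch can be assigned to its gene, whereas one from the longest identical run, 341 bases, cannot. The 2 levels are therefore uncertain where the counting could split shared reads between them, and how such reads were treated is not given in the sources used here.

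Promoter windows, from 250 bases before to 50 bases after the annotated start, were taken from RefSeq on GRCm38.p6 for 8 of the 10 genes, all but Spc24 and Zfp599. Those of Aph1b (chr9:66795374-66795673, minus strand) and Aph1c (chr9:66834657-66834956, minus) are shown because these neighbours were higher together in transgenic liver, and that of Rcn2 (chr9:56041595-56041894, plus) as a gene that was lower. Capitals mark the GC box (GGGCGG or, on the other strand, CCGCCC) and the CCAAT box (CCAAT or ATTGG).
Aph1b: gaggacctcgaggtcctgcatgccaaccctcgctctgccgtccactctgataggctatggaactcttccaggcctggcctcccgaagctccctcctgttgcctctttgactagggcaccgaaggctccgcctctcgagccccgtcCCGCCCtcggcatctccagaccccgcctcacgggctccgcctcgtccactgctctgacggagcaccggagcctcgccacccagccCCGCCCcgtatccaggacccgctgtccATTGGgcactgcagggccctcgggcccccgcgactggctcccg
Aph1c: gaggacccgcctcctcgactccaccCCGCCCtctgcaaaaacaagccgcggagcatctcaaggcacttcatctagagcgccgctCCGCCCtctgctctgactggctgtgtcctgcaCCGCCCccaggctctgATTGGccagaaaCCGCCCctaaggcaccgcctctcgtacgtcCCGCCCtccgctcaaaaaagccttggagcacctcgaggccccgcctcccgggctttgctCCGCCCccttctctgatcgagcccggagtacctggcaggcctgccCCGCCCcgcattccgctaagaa
Rcn2: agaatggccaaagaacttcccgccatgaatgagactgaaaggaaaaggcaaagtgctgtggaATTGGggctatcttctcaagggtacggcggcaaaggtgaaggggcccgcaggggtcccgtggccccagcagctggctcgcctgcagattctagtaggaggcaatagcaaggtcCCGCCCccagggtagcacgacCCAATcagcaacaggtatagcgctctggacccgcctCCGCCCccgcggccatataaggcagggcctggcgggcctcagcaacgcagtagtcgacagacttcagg
The Aph1c window held 7 GC boxes and 1 CCAAT box, that of Aph1b 2 and 1, and that of Rcn2 2 and 2. Over the 8 genes, 7 had a GC box in a window, all but Zfp949, beside 35.7% of all 32851 windows. A CCAAT box stood in 4 of the 8, Tmem218 being the fourth, beside 37.4% of all windows. The TATA box (TATAAA or TTTATA) was in none of the 8, beside 13.6%, and the palindromic core of the cAMP response element, TGACGTCA, only in that of Mcam, beside 1.79%. The windows ranged from 43.3% (Zfp949) to 72.7% (Mcam) in GC content, and the median window of the genome has 52.7%. Windows of high GC content occurred among genes that were higher (S1pr5, Aph1b) and lower (Mcam), and a match is a description of the letters only.

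In transgenic liver 7 of the 10 genes were higher than in WT and 3 were lower, from 12.9-fold higher for Aph1c to 3.37-fold lower for Mcam. These levels chose the genes and are given without a test. For Zfp599, 1 of the 7, the direction was also fixed by which genes are listed, as given below. Every one of the 10 had transgenic libraries entirely above or below the WT libraries with a log2 fold change of at least 1 in size. Among all genes listed, 1.15% lay apart in this way on the higher side and 1.6% on the lower. By limma, 0 of the 13774 genes passed an adjusted p of 0.05 in transgenic liver, and 1256 had an unadjusted p under it, so none of the 10 differences stands on a limma call of its own. Counts of calls varied with the tool, at 0 by edgeR and by voom and 188 by DESeq2, and with the libraries, at 6 without transgenic replicate 1 and 146 without transgenic replicate 2. Fold changes below are on the log2(value + 1) scale with their standard errors (SE), n = 2 against 2, and a fold is the ratio of the mean normalised reads.

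**Figure D1:**
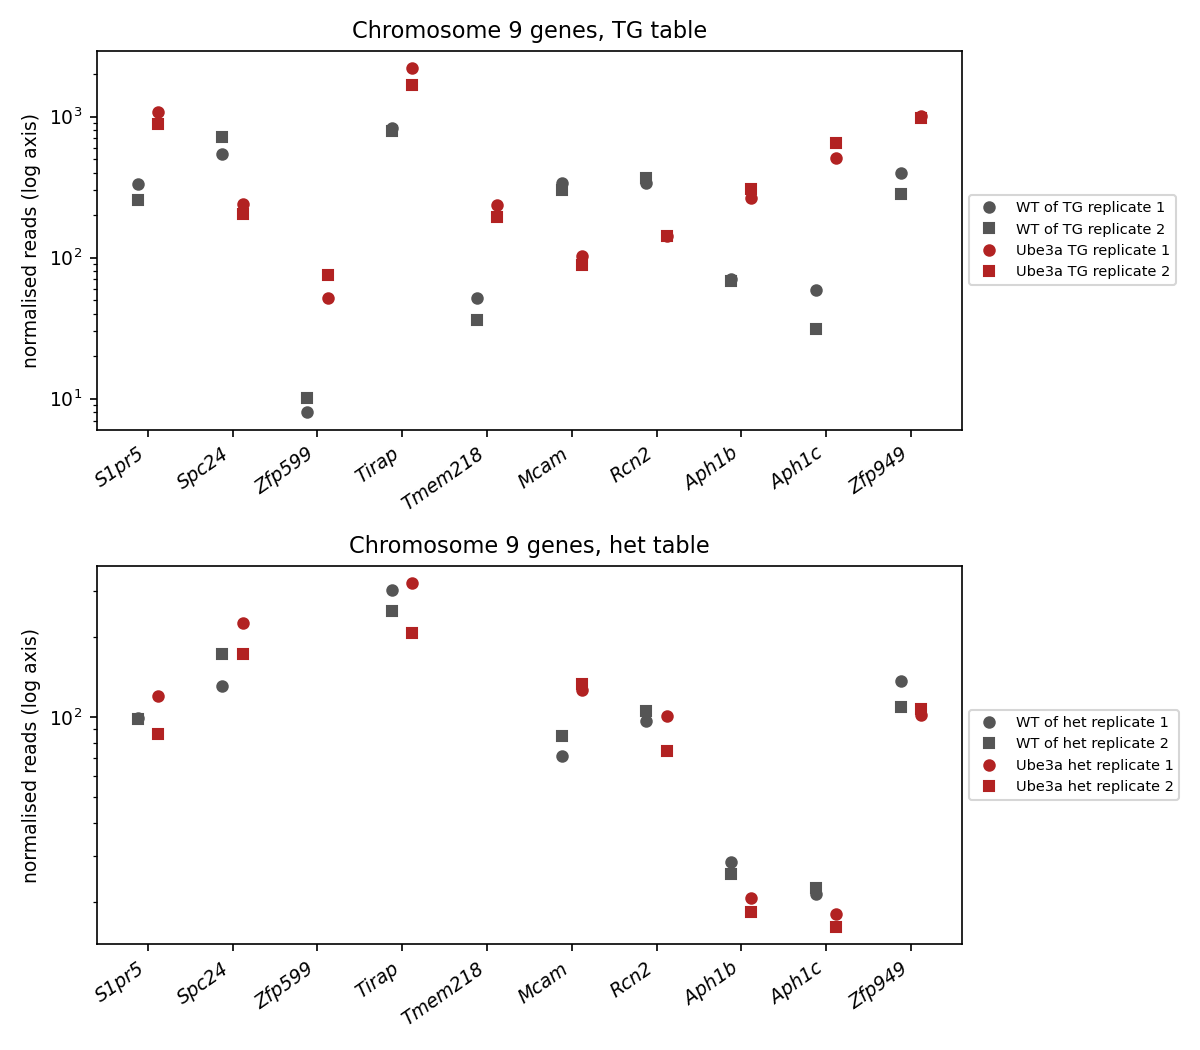
Normalised reads on a log axis for each of the 10 genes, with the transgenic comparison above and the heterozygote comparison below; grey points are WT libraries, red points the Ube3a TG or Ube3a het libraries, circles replicate 1 and squares replicate 2. The red points leave the grey ones in every gene of the upper panel, as in Aph1c at 507 and 654 against 59 and 31.3, whereas in the lower panel they overlap for 3 of the 8 genes listed there.

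Among the receptors and adaptors at the cell surface, S1pr5 stood at 335 and 258 normalised reads in WT and at 1086 and 892 in transgenic liver. The lower transgenic library was 2.66 times the higher WT library, and the difference was 1.74 (SE 0.19) on the log2 scale, 3.34-fold. Markers of natural killer and T cells were sparse, with 11 of 14 listed and the defining markers Ncr1, Eomes and Klrg1 not listed. Their summed level was 244 and 243 normalised reads in WT and 309 and 222 in transgenic liver, and its part in the level of S1pr5 was not tested. In bulk liver, more or fewer cells of a type and more or less RNA per cell cannot be told apart, here and for the genes below. For the lists of partners and markers below, a gene counted as above or below WT had both transgenic libraries beyond the WT pair by any margin, as did 21.8% of all genes above and 21.6% below. Of 13 other genes that make, carry, degrade or sense sphingosine 1-phosphate, 2 had transgenic libraries above WT and 1 below, with a median log2 fold change of 0.09 beside 0.00 over all genes. The largest difference among those at a mean of at least 50 was in Apom, the plasma carrier of the lipid, at 9209 and 7740 in WT and 10216 and 17600 in transgenic liver.

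Tirap was at 835 and 788 normalised reads in WT and 2212 and 1669 in transgenic liver, a log2 difference of 1.24 (SE 0.17) or 2.39-fold. Both transgenic libraries were above the WT pair, although with 2.0 as the ratio of the nearest libraries this was the narrowest gap of the 10. Srpr, which overlaps Tirap at its start and encodes a subunit of the signal recognition particle receptor, had overlapping groups and a log2 difference of -0.06. Of 21 partners in Toll-like receptor signalling 5 lay above and 7 below WT in transgenic liver (median log2 fold change -0.02), with Tlr5, the flagellin receptor, the farthest at 662 and 796 in WT and 210 and 343 in transgenic liver (-1.43, SE 0.27). Markers of Kupffer cells and macrophages, which use these receptors, had 8 of 13 below WT and 0 above, at a median of -0.35. Their summed level was 36090 and 33802 in WT and 22086 and 30012 in transgenic liver, and their part in the levels of Tirap and its partners was not tested.

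Mcam was at 341 and 304 normalised reads in WT and 102 and 89.1 in transgenic liver. The transgenic pair lay below the WT pair by 1.74 on the log2 scale (SE 0.19), or 3.37-fold lower. Endothelial markers were also lower: 13 of 14 had both transgenic libraries below WT, at a median log2 fold change of -0.25, and their summed level was 22566 and 22692 in WT and 18859 and 18761 in transgenic liver. Of 12 listed markers of stellate cells, pericytes and smooth muscle, 2 lay above and 1 below WT, with a median of -0.19. Other cell types differed as well: hepatocyte markers had 6 of 10 above WT and 0 below, at a median of 0.29. The part of these cell types in the level of Mcam was not tested. Among 11 ligands and adhesion partners 6 lay below WT and 0 above. This list is not separate from those above, since Kdr, Cdh5 and Pecam1 are also in the endothelial list and Pdgfrb in the stellate list. The galectin Lgals1, a ligand of Mcam, was at 2166 and 1116 in WT and 519 and 466 in transgenic liver (-1.66, SE 0.34).

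The gamma-secretase subunits Aph1c and Aph1b were both higher. Aph1c stood at 59 and 31.3 normalised reads in WT and at 507 and 654 in transgenic liver, a log2 difference of 3.71 (SE 0.35) and the largest of the 10 genes. Aph1b was at 70 and 68.7 in WT and 263 and 309 in transgenic liver, a log2 difference of 2.02 (SE 0.20), 4.12-fold. Each transgenic library was more than 3 times any WT library in both genes, the nearest ratios being 8.59 and 3.76. Other genes of the pathway were mixed: of 13 further subunits, substrates and cooperating sheddases, 2 lay above and 4 below WT, the median log2 fold change was -0.10, and App, which encodes the amyloid precursor protein, was the farthest at 3613 and 4270 in WT against 3035 and 2726 (-0.45, SE 0.14).

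Spc24 was at 542 and 712 normalised reads in WT and 242 and 204 in transgenic liver, with both transgenic libraries below WT (-1.48, SE 0.20, 2.81-fold lower). Its direct partner in the Ndc80 complex, Spc25, was at 713 and 511 in WT and 192 and 410 in transgenic liver (-1.10, SE 0.41), lower in both libraries but with a wide spread. Of the 12 kinetochore partners listed, 6 lay below WT and 0 above. Proliferation markers lay lower too, 9 of 12 below WT and 0 above, at a median log2 fold change of -1.03, and their summed level was 3175 and 2504 in WT and 2069 and 1915 in transgenic liver. Their part in the level of Spc24 was not tested.

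Tmem218 was at 52 and 36.4 normalised reads in WT and 237 and 194 in transgenic liver, both above WT (2.28, SE 0.28, 4.88-fold). Of 16 partners at the ciliary transition zone 1 lay above and 7 below WT, and the median of the list was -0.21. Rcn2 was at 338 and 365 in WT and 143 and 141 in transgenic liver, both below WT (-1.30, SE 0.17, 2.47-fold lower), with the smallest SE of the 10. Its relatives and other chaperones of the endoplasmic reticulum had 2 of 10 above and 2 below WT, at log2 fold changes of -0.18 to 0.21.

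Zfp599 was at 8 and 10.1 normalised reads in WT and 51.6 and 75.1 in transgenic liver, above WT in both (2.66, SE 0.40, 7.0-fold), with the largest SE of the 10. Its WT mean of 9.05 lay under 11.2, the lowest gene mean listed in the transgenic comparison. A gene at this WT level without a rise would not have been listed, so the direction of Zfp599 is no result. Zfp949 was at 396 and 284 in WT and 1010 and 983 in transgenic liver, again above WT in both (1.57, SE 0.19, 2.93-fold). Of 9 cofactors of such zinc-finger proteins 5 lay above and 0 below WT, with a median of 0.14 and Cbx3, a heterochromatin protein, the farthest at 540 and 735 against 831 and 822.

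The heterozygote libraries played no part in choosing the genes and were tested. In limma, 1 of the 8 genes listed, Mcam, had an unadjusted p under 0.05, as did 1729 of all 11773 genes. None of the 8 passed an adjusted p of 0.05. Over all genes of that comparison, 169 passed, 105 higher and 64 lower, or 1.44%. That number depended on single libraries: it was 65 without WT replicate 1, 61 without heterozygote replicate 1 and 105 without heterozygote replicate 2. The median size of the log2 fold change was 0.29 over the 8 genes and 0.15 over all genes. By overlap, 2 of the 8 lay above WT and 3 below, beside 24.3% and 23.7% of all genes, and 3 overlapped.

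Mcam was at 71.2 and 85.1 normalised reads in the WT pair and 127 and 133 in the heterozygotes. Both heterozygote libraries were higher, by 0.73 on the log2 scale (SE 0.18, 95% interval 0.33 to 1.14) or 1.66-fold, at a limma adjusted p of 0.102 and an unadjusted p of 0.00285 from the same model. Endothelial markers lay higher too, 11 of 14 with both heterozygote libraries above WT at a median of 0.33, and their summed level was 5712 and 6069 in WT and 6765 and 6982 in the heterozygotes. Lyve1 and Gpr182, markers of liver sinusoids, passed the test (0.92 and 0.67, limma adjusted p = 0.0403 and 0.0443), but Lyve1 missed the threshold without WT replicate 1 (0.119), without heterozygote replicate 1 (0.197) and without heterozygote replicate 2 (0.168), and Gpr182 missed it without any 1 of the 4 libraries (0.0859 to 0.224). The ligand Lgals1 rose from 343 and 453 to 1196 and 1492 (1.76, SE 0.17, limma adjusted p = 0.0108), and passed with any 1 library left out but not in a joint fit of all 8 libraries (0.223). The part of the endothelium in the level of Mcam was not tested here either.

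Spc24 was at 131 and 173 normalised reads in WT and 227 and 174 in the heterozygotes. The lower heterozygote library and the higher WT library were nearly equal (ratio 1.00), and the log2 difference of 0.40 (SE 0.19) had a limma adjusted p of 0.383. Proliferation markers summed to 671 and 774 in WT and 973 and 867 in the heterozygotes, with 4 of 9 above WT and 0 below. Spc25 was at 138 and 145 in WT and 172 and 189 in the heterozygotes (0.35, SE 0.14, limma adjusted p = 0.307).

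Aph1b was at 28.3 and 25.6 normalised reads in WT and 20.7 and 18.4 in the heterozygotes. Aph1c was at 21.5 and 22.6 in WT and 18.1 and 16.1 in the heterozygotes. Both genes were lower in each heterozygote library, with log2 differences of -0.44 (SE 0.32, limma adjusted p = 0.557) and -0.35 (SE 0.34, limma adjusted p = 0.679). The rest of the gamma-secretase list had 6 of 13 above and 2 below WT, and 0 of them passed; Notch1, a substrate, was farthest at 263 and 249 against 345 and 439 (0.60, limma adjusted p = 0.0837).

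S1pr5 was at 99.5 and 98.4 normalised reads in WT and 121 and 86.3 in the heterozygotes, so the WT pair lay between the heterozygote libraries (0.04, SE 0.20, limma adjusted p = 0.946). Its relative S1pr1, the sphingosine 1-phosphate receptor of endothelium and lymphocytes, fell from 826 and 838 to 585 and 611 (-0.48, SE 0.09, limma adjusted p = 0.0477), the only 1 of 10 listed genes of that group to pass. That call was lost without any 1 of the 4 libraries (limma adjusted p 0.115 to 0.237), and S1pr1 lay below WT where most endothelial markers lay above.

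Tirap was at 301 and 251 normalised reads in WT and 321 and 207 in the heterozygotes, which enclosed the WT pair (-0.09, SE 0.22, limma adjusted p = 0.888). Rcn2 was at 96.5 and 106 in WT and 101 and 74.8 in the heterozygotes, overlapping (-0.22, SE 0.20, limma adjusted p = 0.664). Zfp949 was at 137 and 110 in WT and 102 and 107 in the heterozygotes, lower in both by a small margin (-0.23, SE 0.18, limma adjusted p = 0.589). The intervals show how large a change these data leave possible, as for S1pr5 from -0.42 to 0.50, so a missed threshold does not show equal levels.

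**Figure D2:**
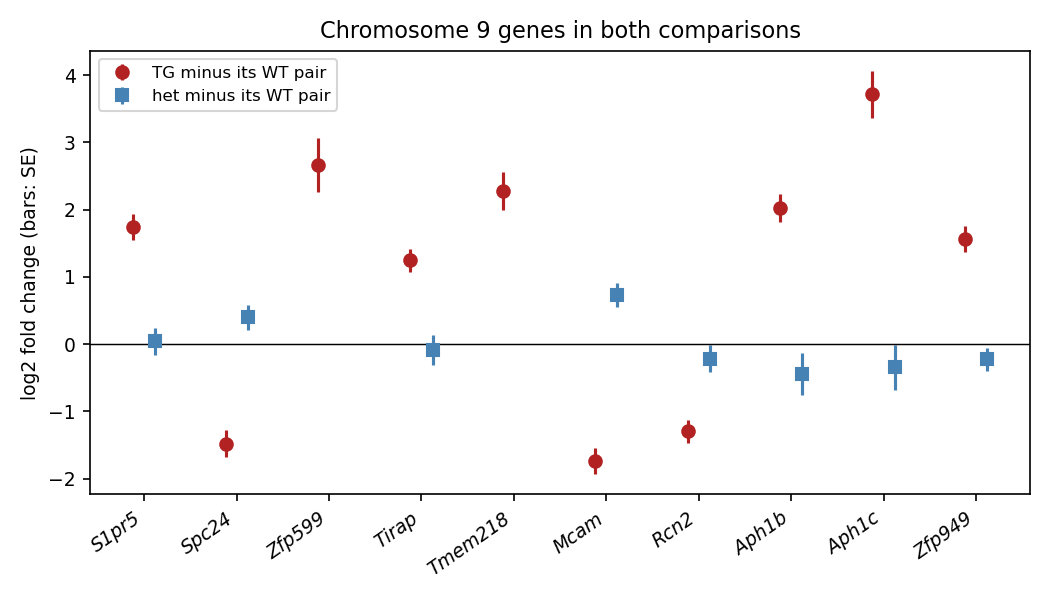
Log2 fold changes of the 10 genes against the WT pair of the same table, with bars of 1 SE; red circles are transgenic and blue squares heterozygous liver. Transgenic values lie between -1.74 and 3.71 with none within 1 of zero, and heterozygote values between -0.44 and 0.73.

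Side by side, Spc24 and Mcam were lower in transgenic and higher in heterozygous liver, and Tirap, Aph1b, Aph1c and Zfp949 the reverse, whereas S1pr5 was higher and Rcn2 lower in both. Opposite signs were not particular to these genes. Of 14 endothelial markers, 14 had a log2 fold change below 0 in transgenic and 14 above 0 in heterozygous liver. For 13 macrophage markers these counts were 12 and 11. Of 10 relatives of Rcn2 and chaperones, 7 were above 0 in both. The share over all genes was not taken. The heterozygote signs of Tirap and S1pr5 were not stable. Tirap was at 0.04 without WT replicate 1 and 0.22 without heterozygote replicate 2, and S1pr5 at -0.20 without heterozygote replicate 1. Rcn2 kept its sign but was at -0.0019 without heterozygote replicate 2. The 95% intervals of 7 of the 8 heterozygote values included 0, all but that of Mcam, and the difference between the 2 effects was not tested because the transgenic values chose the genes.

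The WT pairs of the 2 tables show how far these genes differed between WT libraries, where differences between animals and technical ones cannot be told apart. To place all 8 libraries on a common footing, each level was taken per 1000000 reads of the 11768 genes that both tables list (reads per M), as a description, since the tables were normalised separately and differ in depth. Aph1c was then at 1.30 and 0.703 per M in the first WT pair, 1.42 and 1.51 in the second, 1.18 and 1.06 in the heterozygotes and 11.1 and 13.7 in transgenic liver. S1pr5 was at 7.35 and 5.78, 6.57 and 6.59, 7.90 and 5.70, and 23.8 and 18.6 per M in the same order of groups. Only the transgenic libraries stood away from the others in either gene. Mcam was at 7.49 and 6.83, 4.71 and 5.70, 8.29 and 8.82, and 2.24 and 1.86 per M, so that the heterozygote libraries were less far from the first WT pair than from their own.

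For all 8 genes both transgenic libraries lay outside the range of the 6 others, 5 above and 3 below. Over all shared genes 10% lay above and 12.7% below in this way. The WT pairs differed by -0.46 to 0.55 on the log2 scale in these genes, with a median size of 0.22 beside 0.18 over all shared genes. The transgenic libraries and the first WT pair entered the choice of the genes, and the second WT pair and the heterozygotes did not. The genes thus lay apart from the first WT pair by choice, so their count beside these shares is a description only.

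**Figure D3:**
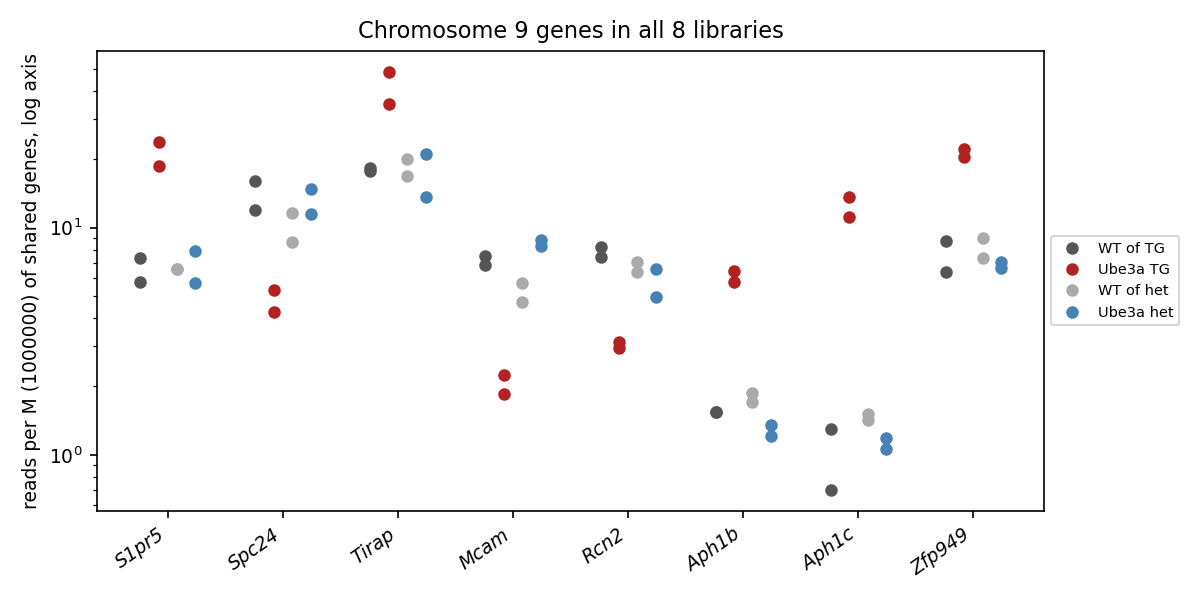
Levels in reads per M (per 1000000 reads) of the genes listed in both tables, on a log axis, for the 8 genes in all 8 libraries; dark grey and light grey points are the WT pairs of the transgenic and heterozygote tables, red points transgenic and blue points heterozygous liver. Red points lie above all others for S1pr5, Tirap, Aph1b, Aph1c and Zfp949 and below them for Spc24, Mcam and Rcn2.

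The immediate neighbours of the 10 genes are given beside them, as genes not chosen for their differences. Of the 18 nearest listed genes on either side that are not themselves among the 10, 15 had a log2 fold change under 0.5 in size, and the range was -1.0 to 0.74. The other 3 also had transgenic libraries apart from WT, beside 10.5% of all genes that were apart by 0.5 or more. By any margin 8 of the 18 were apart, beside 21.8% of all genes above WT and 21.6% below. Slc37a2, a sugar phosphate transporter beside Tmem218, was at 108 and 110 normalised reads in WT and 156 and 213 in transgenic liver, in the direction of Tmem218. Rnf26, a ubiquitin ligase gene beside Mcam, was at 540 and 574 in WT and 285 and 326 in transgenic liver, in the direction of Mcam. The noncoding 9430037G07Rik was at 68 and 84.9 in WT and 40.0 and 35.1 in transgenic liver, against the direction of its neighbour Zfp949. S1pr5 and Spc24 had 14 listed genes between them, and 0 of these lay apart by 0.5 or more.

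Chromosome 9 as a whole had a larger share of genes apart by 0.5 or more in transgenic liver than any of the other 19 chromosomes compared. Of its 739 listed genes, 115 (15.6%) had groups apart and a log2 fold change of at least 0.5 in size, 50 higher and 65 lower, beside 10.5% over the whole table. The chromosome next in order, 14, had 13.0%. Without the 10 genes, chromosome 9 had 105 of 729 (14.4%). At a log2 fold change of at least 1 it had 49 genes (6.63%), and 39 (5.35%) without the 10, beside 2.51% on the other chromosomes. Chromosome 1 came next by this rule, at 4.21%. These shares come from the comparison that chose the genes and are a description, with no test.

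Along the chromosome the shares were as follows, with no test between them. Before S1pr5 it was 6 of 67 genes (8.96%), from S1pr5 to Zfp949 it was 65 of 392 without the 10 genes (16.6%), and beyond Zfp949 it was 34 of 270 (12.6%). In heterozygous liver the same 3 stretches had 4 of 60 (6.67%), 29 of 326 (8.90%) and 16 of 233 genes (6.87%), beside 7.95% over the whole table. The chosen genes set the bounds of the middle stretch, so its transgenic share is not independent of their choice. Between consecutive genes of the 10, the transgenic share ran from 0 of 14 (S1pr5 to Spc24) to 8 of 28 (28.6%, Tmem218 to Mcam), with 5 of 19 (26.3%) from Spc24 to Zfp599 and 20 of 85 (23.5%) from Aph1c to Zfp949. In heterozygous liver chromosome 9 had 50 of 627 genes (7.97%) beside 7.95% over the whole table, and stood at rank 9 of 20. Of these 627 genes, 10 passed the limma test there, beside 1.44% over the whole table. At a log2 fold change of at least 1 chromosome 9 had 15 genes (2.39%) beside 1.57% on the other chromosomes, at rank 3 of 20. Of the 15, 14 were higher, beside 113 of 169 such genes on the other chromosomes. The labels name only C57BL/6 as background and give no site of the transgene, so the position of the transgene relative to these genes was not tested.

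**Figure D4:**
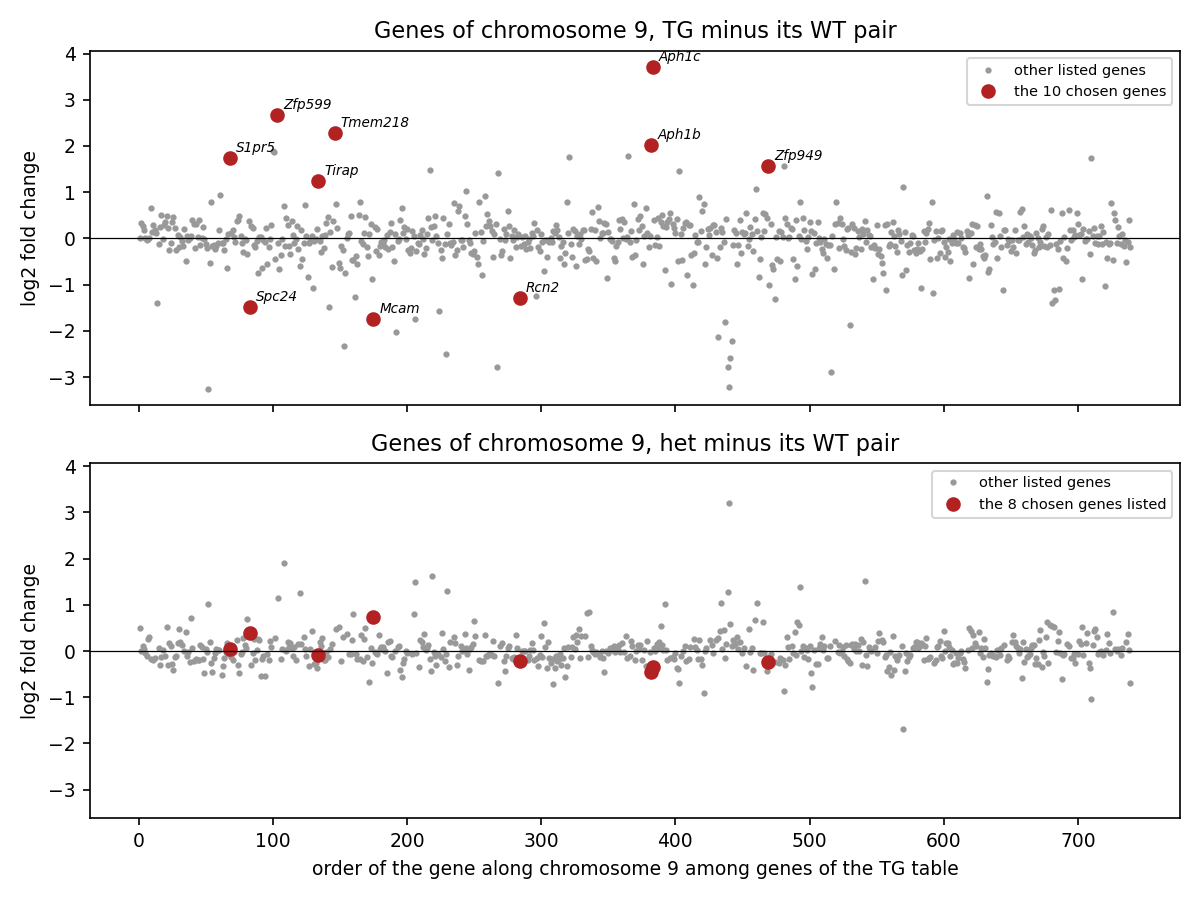
Log2 fold change of every listed gene of chromosome 9 in its order along the chromosome, for transgenic liver above and heterozygous liver below; red points are the chosen genes and grey points all others. In transgenic liver the chosen genes stand among scattered other genes with log2 fold changes beyond 1 in either direction, whereas in heterozygous liver they lie between -0.44 and 0.73.

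**Figure D5:**
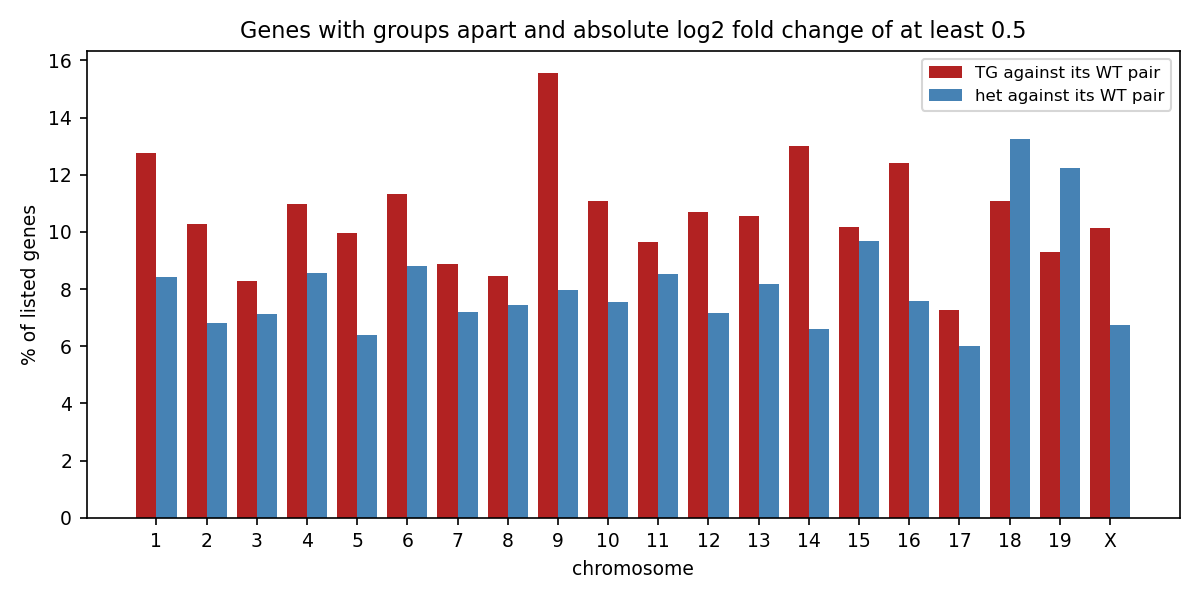
Percent of listed genes on each chromosome whose groups did not overlap and whose log2 fold change was at least 0.5 in size, with red bars for transgenic and blue bars for heterozygous liver. Chromosome 9 has the tallest red bar at 15.6%, and its blue bar of 7.97% lies in the middle of the other chromosomes.

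The 10 genes were not the only ones of chromosome 9 with large differences in transgenic liver. Of the 50 genes of smallest unadjusted p in that table, which lists 739 chromosome 9 genes among 13774, 14 were on chromosome 9. The 10 chosen were picked from this comparison and so raise that count, and 4 were others. These others, all lower, were 3 neighbouring genes of glutathione S-transferases, enzymes of detoxification, and the ribosomal protein gene Rpl29. Gsta1 was at 334 and 224 normalised reads in WT and 41.9 and 36.1 in transgenic liver (-2.78, SE 0.28). Gsta2 was at 1333 and 1190 in WT and 338 and 217 in transgenic liver (-2.21, SE 0.24). Gm3776, a near relative of Gsta1 with which it may share reads, was at 187 and 124 in WT and 18.5 and 13.0 in transgenic liver (-3.21, SE 0.36). Rpl29 was at 3790 and 3355 in WT and 1681 and 1619 in transgenic liver (-1.11, SE 0.12). In the heterozygotes none of the 4 passed the limma test. Gsta1 lay above WT there, at 19.5 and 53.3 against 70.7 and 89.7 (1.27, limma adjusted p = 0.317), as did Gm3776, listed at 0 and 42.0 against 61.2 and 57.5 (limma adjusted p = 0.634). Gsta2, at 129 and 375 against 270 and 210 (0.12, limma adjusted p = 0.962), and Rpl29 (-0.09, limma adjusted p = 0.75) overlapped their WT pair. The 3 glutathione S-transferase genes thus varied widely within this WT pair. Their levels in the 2 WT pairs were not compared on a common scale.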

How the data were processed

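Libraries were made from total liver RNA with TruSeq reagents, as the labels' protocols state. Tools given in the submitters' processing notes, without roles, are featureCounts, Subread 1.5.2 and DESeq2, with the builds mm10 and GRCm38. The authors' deposited signal values are gene read counts scaled by 1 factor per library, as seen from the values: 100% of them are a whole number of steps (tolerance 0.001 of a step). The lowest gene mean listed is 11.2 in the transgenic and 17.8 in the heterozygote table, and genes not listed were not analysed here. Within either table, 4 rows share names that a spreadsheet had turned into dates; they stayed in the tests. Positions from GENCODE mouse release M21 (GRCm38) were matched by symbol for 96.3% and 96.5% of genes.

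Each mutant was compared with the 2 WT libraries of its own table by limma 3.58.1 in R 4.3.3 (lmFit, eBayes with trend and robust) on log2(value + 1), which understates changes of low genes, with Benjamini-Hochberg adjustment over the whole table and a threshold of 0.05. Groups were apart when the ranges of their libraries did not overlap. The script was tested on simulated data. The named genes were the 10 chosen, other chromosome 9 genes among the 50 of smallest unadjusted p in transgenic liver, neighbours apart by a log2 fold change of 0.5 or more, called genes of each list, the gene of each list with the largest change at a mean of at least 50, and Ube3a. The members and lists were chosen with earlier results of these data known. Alternatives were other pseudocounts, TMM scaling, a filter on low values, edgeR 4.0.16, DESeq2 1.42.0 and voom on reads recovered from the transgenic table, a joint fit, a replicate block and leaving out each library.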

Additional observations from a re-analysis of the deposited data

How the results depend on the processing

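Of the 10 transgenic log2 fold changes, that of Zfp599 was 2.27 with a pseudocount of 5. Leaving out a library cannot turn the sign where 2 libraries a group lie apart, nor move the fold beyond the spread between replicates, and the block, the joint fit and the fit without robust estimates leave it as it is, so these settings say nothing of how stable the 10 values are. The number of genes called in transgenic liver, 0 by limma, was 25 in a joint fit of all 8 libraries and 188 by DESeq2, and ranged from 0 to 146 when a library was left out (6 without transgenic replicate 1 and 146 without transgenic replicate 2). It was 0 by edgeR and voom. The 169 calls in heterozygous liver became 93 without robust estimates and 0 in the joint fit, and ranged from 61 to 173 when a library was left out (65 without WT replicate 1, 61 without heterozygote replicate 1 and 105 without heterozygote replicate 2). None of the 8 genes was called in heterozygous liver under the 11 alternatives run, although Aph1b and Aph1c did not enter the fit with the filter on low values. In the alternatives that kept every library, the limma adjusted p of Mcam was 0.10 to 0.26. Signs near 0 reversed in 2 genes: S1pr5 was at -0.20 without heterozygote replicate 1 (range -0.20 to 0.28 with a library left out), and Tirap at 0.04 without WT replicate 1 and 0.22 without heterozygote replicate 2 (range -0.41 to 0.22). On chromosome 9, 49 genes rather than 115 lay apart at a log2 fold change of at least 1. The cause was not tested in these cases, beyond the fewer libraries or stricter rule that the alternatives have by construction.

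With the replicate number as a replicate block, 0 genes were called in transgenic and 138 in heterozygous liver, none of them among the 8; S1pr1 lost its call (adjusted p = 0.0643). Of the other calls named in heterozygous liver, Lgals1 held in 10 of 11 alternatives, all but the joint fit (0.223), Lyve1 in 6 and Gpr182 in 5, S1pr1 in 4. The deviations of same-numbered libraries correlated at 0.107 and -0.0426, so the numbers are not taken to pair them. The planned edgeR, DESeq2 and voom alternatives were not run for the heterozygote table, because a second check, on the low values alone, recovered whole reads only in the transgenic table; the depths given for the heterozygote table rest on the first check. When a library was left out, the lone library of its group was assumed to vary like the other group. With 2 libraries a group, precision is limited, most of all for Zfp599 in WT and for Aph1b and Aph1c in the heterozygote table, all at low normalised reads.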
